A study of Homo sapiens with 6 samples.

Results

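The genes described here copy DNA during S phase and supply it with nucleotides and histone chaperones. They are 45 genes of 48162 in the deposited table, chosen by gene symbol from the known parts of the replication machinery and sorted into 8 roles. All 45 were present and all 45 had enough counts to be tested. HEK293, an established human embryonic kidney line, was transfected with Flag-tagged Ago2, the protein that carries small RNAs in the silencing complex, in all 6 libraries. Together with it, 3 libraries received a microRNA-219 mimic and 3 a negative control mimic, a small RNA used as the baseline. Ago2 was recovered through its Flag tag on agarose beads, and the RNA that came down with it was sequenced. Each arm has a library dated 22 August, one dated 5 September and one dated 18 September, and the labels do not say whether dates were separate cultures. What the p-values capture is thus the spread among these 6 libraries, part of which could be technical. In this bulk material, fewer cells in S phase and less RNA per cell cannot be told apart, and neither can be told apart from weaker binding to Ago2, since input RNA was not used here.

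Replication begins when the origin recognition complex, CDC6 and CDT1 load the MCM helicase onto DNA before S phase. CDC45 and GINS then activate the helicase, polymerases alpha, delta and epsilon make the new strands, and PCNA, loaded by replication factor C, holds the polymerases on the template. Many of these genes are switched on by E2F transcription factors as cells leave G1. Histone mRNAs of the replication-dependent class also accumulate in S phase, through both transcription and a stem-loop bound by SLBP in place of a poly(A) tail.

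Which mature strand of microRNA-219 the mimic stands for is not given in the labels. The 3 mature forms of microRNA-219a are therefore shown side by side, with the seed, bases 2 to 8 from the 5′ end, in capitals. They come from RefSeq on GRCh38.p14. The first is made from MIR219A1 on chr6 and from MIR219A2 on chr9, the second from MIR219A1 and the third from MIR219A2.
hsa-miR-219a-5p: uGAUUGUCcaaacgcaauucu
hsa-miR-219a-1-3p: aGAGUUGAgucuggacgucccg
hsa-miR-219a-2-3p: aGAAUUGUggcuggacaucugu
MicroRNA-219b, which is made from the opposite strand of the MIR219A2 locus, is not shown. The 3 seeds differ from each other, so which mRNAs could pair with the mimic depends on the strand. Target sites in the replication genes were not analysed here.

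Promoter letters were compared between gene sets. A RefSeq window of 300 bases, 250 before to 50 after the start, was matched for 39 of the 45 genes. The letters searched for E2F were TTTCCCGC, TTTCGCGC, TTTGCCGC and TTTGGCGC on both strands, and some of these can overlap each other on opposite strands. They were found in 17 of the 39 windows (43.6%) and not in the other 22. They were in 7 of 33 windows of other replication genes (21.2%), 2 of 21 of mitotic genes (9.52%) and 3.33% of all 27305 promoter windows. CCAAT, the letters bound by NF-Y, was on either strand in 56.4% of the 39 windows, 57.6% of those of other replication genes, 85.7% of the mitotic ones and 35.7% of all windows. The cell cycle homology region of late cell cycle genes, TTTGAA or TTCGAA on either strand, was in 2 of 39 (5.13%), 15.2% of other replication genes, 66.7% of mitotic genes and 16.6% of all windows. These are descriptions of letters, not of sites in use. The 250 bases upstream of PCNA, POLA1 and LIG1 are printed because these 3 genes stood at opposite ends of the replication set on 22 August while each carries the E2F letters, shown in capitals. The strand of the gene is given 5′ to 3′. PCNA lies at chr20:5126623-5126872 (minus strand), POLA1 at chrX:24693668-24693917 (plus strand) and LIG1 at chr19:48170345-48170594 (minus strand) of GRCh38.p14.
PCNA: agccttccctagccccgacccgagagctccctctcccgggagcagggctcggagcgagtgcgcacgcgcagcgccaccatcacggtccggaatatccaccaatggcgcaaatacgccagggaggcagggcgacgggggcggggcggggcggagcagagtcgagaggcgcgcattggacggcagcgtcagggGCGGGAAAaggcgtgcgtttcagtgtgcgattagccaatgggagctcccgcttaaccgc
POLA1: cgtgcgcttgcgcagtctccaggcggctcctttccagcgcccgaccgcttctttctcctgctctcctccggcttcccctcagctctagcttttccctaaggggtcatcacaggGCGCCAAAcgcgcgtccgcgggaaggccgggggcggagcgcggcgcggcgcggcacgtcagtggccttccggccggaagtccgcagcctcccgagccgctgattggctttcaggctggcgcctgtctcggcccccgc
LIG1: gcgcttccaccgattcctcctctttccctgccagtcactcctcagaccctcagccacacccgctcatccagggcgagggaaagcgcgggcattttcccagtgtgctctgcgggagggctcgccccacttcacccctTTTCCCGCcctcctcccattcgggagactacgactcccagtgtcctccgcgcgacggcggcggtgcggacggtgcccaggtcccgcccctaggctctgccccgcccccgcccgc
FEN1, ORC6, RRM2 and SLBP had none of the 4 sets of letters in their windows, which says only that the letters are not there.

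Libraries held 20233819 to 34408699 counts, of which AGO2 took 10.6 to 18.0% and mitochondrially encoded transcripts 5.66 to 13.3%. The 45 genes took 0.589 to 0.723% of all counts, with 370 to 19999 counts per gene and library, and counting error matters most for the scarcest of them, GINS4. All 6 HEK293 markers (PAX2, NEFM, NEFL, VIM, KRT8 and KRT18) were detected in every library, at 1443 to 1888 normalised CPM in sum. Normalised CPM here is the read count scaled to library size, with the trimmed mean of M-values (TMM) as correction. Of 14 markers of intestinal, plasma, red, fibroblast and white cells, 2 to 6 were at 0 in a library, with IGKC at 0 in all 6. Their sum was 34.8 to 60.97 normalised CPM in 5 libraries and 737 in the control library of 5 September, where HBB alone gave 690. The part of these transcripts in the results below was not tested, and the 5 September ratios of single genes below rest on that control library.

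Before the comparison of arms, the levels show the machinery as it stood in the precipitates. On a scale that divides normalised CPM by gene length (RPKM), PCNA, the sliding clamp, had 242 ± 45.7 and MCM7, a helicase subunit, 212 ± 15.4 (mean ± SD over 6 libraries). MCM3 followed with 144 ± 6.01 RPKM and RRM2, the small subunit of ribonucleotide reductase, with 100.4 ± 13.4. At the low end POLE2, a polymerase epsilon subunit, had 11.1 ± 2.56 and GINS4 4.75 ± 0.462 RPKM. The order spanned 51.0-fold in level per length, and 44 of 45 genes lay above the median of all tested genes. Of 44 neighbouring pairs in that order, 41 had overlapping ranges over the libraries. The 3 steps without overlap were from MCM7 to MCM3, from MCM3 to RRM2 and from POLE2 to GINS4, so most ranks between genes are not fixed by these data.

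**Figure D1:**
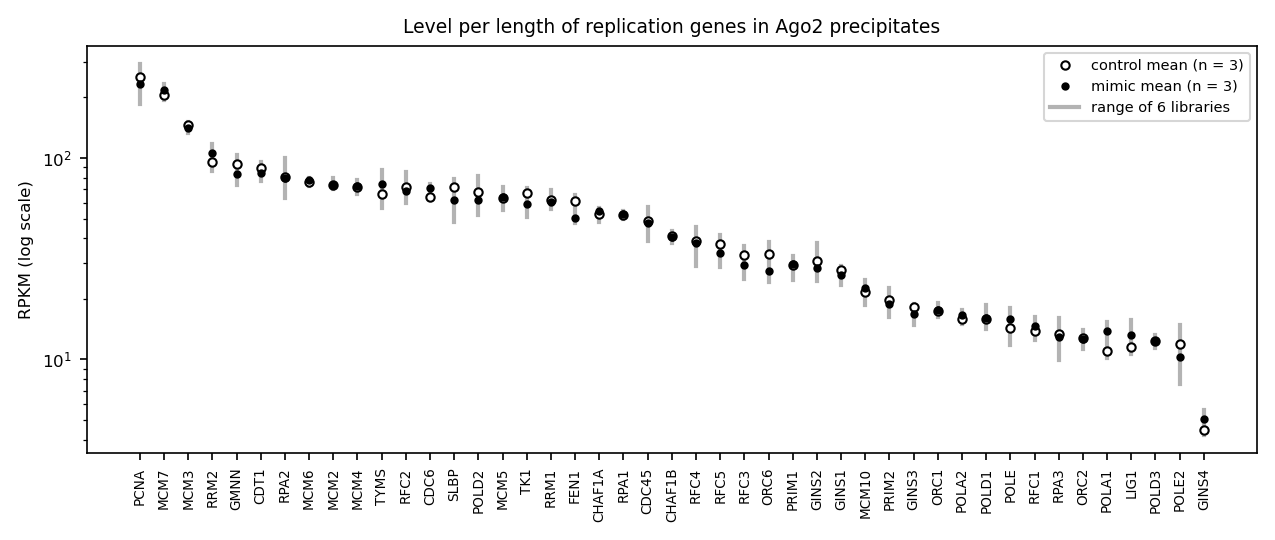
Level per length (RPKM on a log axis) of the 45 replication genes, ordered by the mean of 6 libraries: open circles are control means, filled circles mimic means (n = 3 each) and grey bars the range of the 6 libraries. PCNA and MCM7 lead, with 6-library means of 242 and 212, and GINS4 is lowest, at 4.75.

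Subunits that work in fixed proportion differed in level per length. How the deposited gene length was defined is not stated, so the order above and the ratios between genes depend on that definition. Each ratio below is the highest over the lowest subunit, picked from these same levels, so it shows the widest gap. MCM7 stood 3.34 ± 0.235 times as high as MCM5, its partner in the helicase ring (mean ± SD of the ratio, 6 libraries). MCM2, MCM4 and MCM6 lay closer to MCM5, at 73.7, 72.0 and 77.1 RPKM against 63.6, and MCM3 lay between, at 144. RFC2 was 5.04 ± 1.36 times RFC1, a small and the large subunit of the clamp loader, with a range from 3.69 to 6.81. RFC3, RFC4 and RFC5 lay between them, at 31.1, 38.2 and 35.5 RPKM. GINS2 was 6.31 ± 1.25 times GINS4, and RPA2 was 6.15 ± 1.05 times RPA3, subunits of the complex that coats single-stranded DNA. Where only 2 genes of a complex were in the set, there was no choice of pair. Of the CAF-1 chaperone subunits CHAF1A was 1.32 ± 0.140 times CHAF1B, and of ribonucleotide reductase RRM2 was 1.66 ± 0.339 times RRM1. These ratios are not comparable with the widest gap of a larger complex. Geminin (GMNN), the inhibitor of CDT1, was level with it at a ratio of 1.03 ± 0.192. MCM7 lies over a gene on the opposite strand, AP4M1, and the strand setting of the counting is not given in the sources used here, so its level may include reads of that gene. In all, 15 of the 45 genes overlap another tested gene, 13 of them one on the opposite strand.

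The first question was whether the mimic altered these transcripts in the precipitates. None of the 45 genes was called higher or lower at an adjusted p under 0.05 by edgeR's quasi-likelihood test with Benjamini-Hochberg adjustment over 16233 genes, where 0.0% of all genes were called. Only FEN1 had an unadjusted p under 0.05 (2.22% of the set, against 3.01% of all genes). DESeq2 called 5 genes of the whole table (0.0308%) and limma-voom 0, none of them a replication gene, and each gave 1 replication gene an unadjusted p under 0.05. The median log2 fold change, mimic over control, was −0.02 for the 45 genes and 0.0015 for all genes, and 21 of the 45 lay above 0 (46.7%, against 50.3%). The fitted folds ran from 0.823 to 1.26. The whole set summed to 6399, 6343 and 6815 normalised CPM with the mimic, against 6522, 6277 and 6861 with the control, in date order, so the arms overlapped.

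The intervals show how large a change these data leave room for. The 95% CI lay inside a 2-fold change either way for 45 of 45 genes (84.4% of all genes) and inside a 1.5-fold change for 42 (55.6% of all genes). The exceptions were ORC6, POLA1 and POLE2. The median standard error was 0.15 on the log2 scale, against 0.18 over all genes. Only 5 of the 45 had a fold change above 0.2 either way on the log2 scale (11.1%, against 31.8%). Each of the 45 had at least 2925 counts in total, while the tested genes included some with as few as 33. Scarcer genes vary more, so these shares and the spreads by date below do not compare genes of like abundance.

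**Figure D2:**
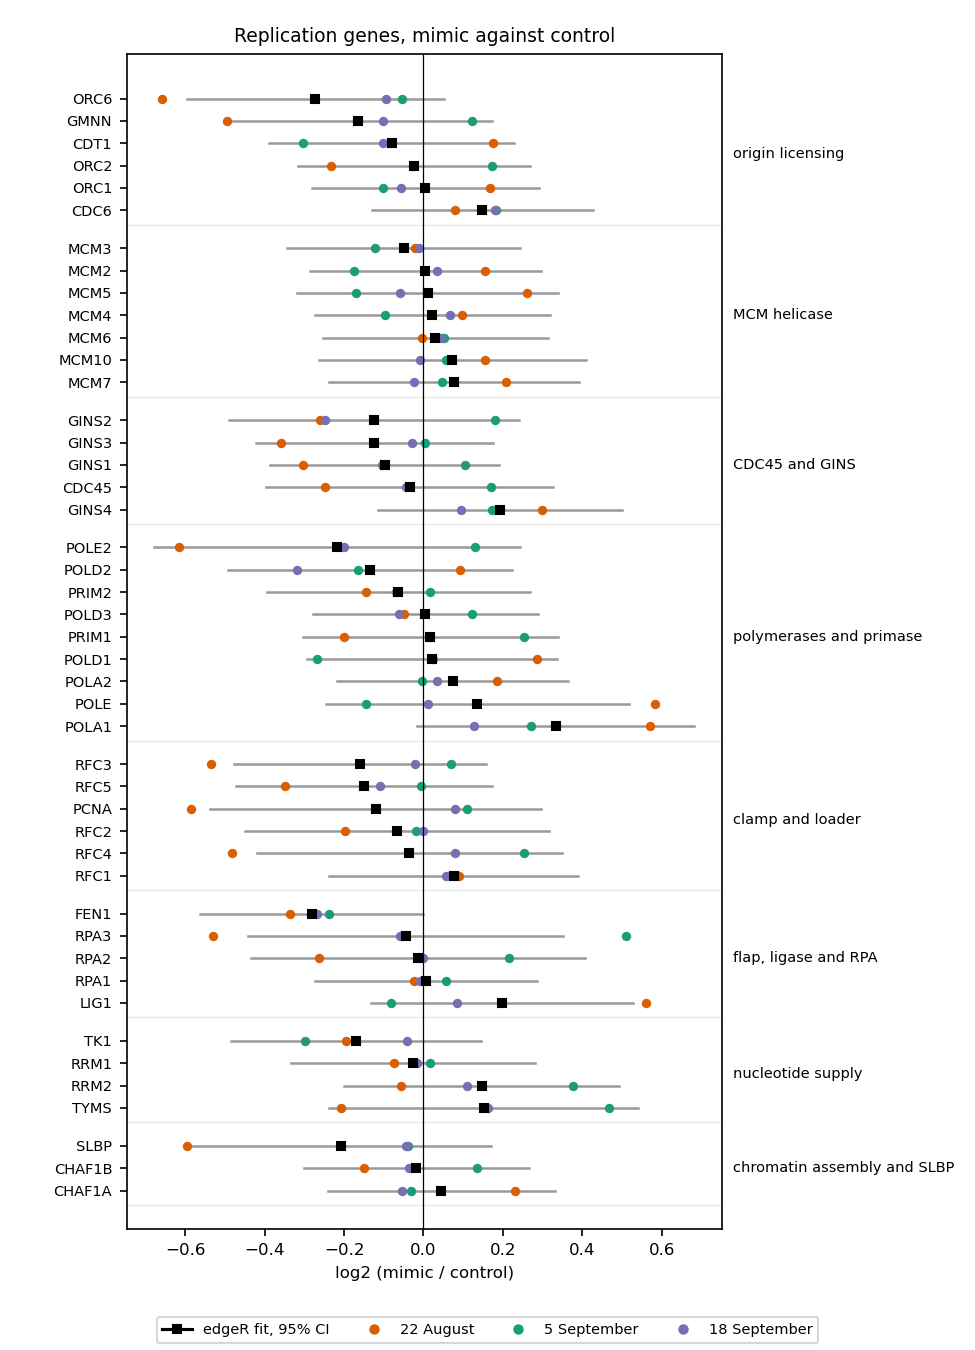
Log2 ratio of mimic to control for each of the 45 genes, grouped by role: squares are edgeR fold changes with 95% CI and dots the ratio on each date. The fitted values run from −0.28 (FEN1) to 0.33 (POLA1), and the dots of 22 August lie farthest out.

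Origin licensing genes had log2 fold changes from −0.27 to 0.15, with 2 of 6 above 0. ORC6, a subunit of the origin recognition complex (chr16:46723555-46732306 of hg19), had 44.6, 55.4 and 51.1 normalised CPM with the mimic, against 70.4, 57.6 and 54.5 with the control on 22 August, 5 September and 18 September. The arms overlapped, and the 22 August control was the highest. Its log2 fold change was −0.27 (SE 0.15, adjusted p = 0.999 by edgeR), and ratios were −0.66, −0.06 and −0.09 in date order. CDC6, the helicase loader (chr17:38443885-38459171), had 211.0, 215.3 and 228.2 normalised CPM with the mimic, against 199.7, 189.8 and 201.3 with the control, with no overlap. Its log2 fold change was 0.15 (SE 0.13), which is close to 1 SE. GMNN, which blocks relicensing through CDT1, had a log2 fold change of −0.17 (SE 0.15). Its 22 August ratio was −0.50 and its later ratios 0.12 and −0.10.

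The MCM genes were the tightest role, with log2 fold changes from −0.05 (MCM3) to 0.08 (MCM7). Of 7, 6 lay above 0, but only 3 did once the trend with gene length, described below, was removed. MCM7 (chr7:99690351-99699563) had 690.6, 591.5 and 647.0 normalised CPM with the mimic, against 598.2, 573.1 and 657.9 with the control, and the arms overlapped. MCM10, which helps to activate the helicase, had a log2 fold change of 0.07 (SE 0.15). For all 7 MCM genes a 1.5-fold change lay outside the 95% CI.

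CDC45 and the GINS genes, which complete the active helicase, had log2 fold changes from −0.12 to 0.19, with 1 of 5 above 0. That one was GINS4 (chr8:41386725-41402565), with 21.7, 18.5 and 18.7 normalised CPM with the mimic, against 17.6, 16.4 and 17.6 with the control. The arms did not overlap, and the log2 fold change was 0.19 (SE 0.14). It had 370 to 627 counts in a library, the fewest of the set. GINS2 and GINS3 had −0.12 each, with SE 0.17 and 0.14, so the subunits of one complex did not share a sign.

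The polymerase and primase genes held the highest fold change of the set. POLA1, the catalytic subunit of polymerase alpha that extends each primer (chrX:24712036-25015103), had 84.4, 82.7 and 60.5 normalised CPM with the mimic, against 56.8, 68.5 and 55.5 with the control. The arms overlapped, because the 18 September mimic library lay under the 5 September control. Its log2 fold change was 0.33 (SE 0.16, 95% CI −0.02 to 0.68, unadjusted p = 0.0605, adjusted p = 0.999 by edgeR), and the exact permutation p was 0.2. The ratio was above 0 on all 3 dates, at 0.57, 0.27 and 0.13. With the date as a replicate block the unadjusted p was 0.0291, and 2 of the 45 (POLA1 and FEN1) were then under 0.05, against 5.75% of all genes. The other genes of that complex had smaller values, 0.07 for POLA2, 0.02 for PRIM1 and −0.06 for PRIM2. POLE2 (chr14:50110273-50155140) had the widest interval of the 45, with a log2 fold change of −0.22 (SE 0.21), and POLD2, a polymerase delta subunit, had −0.13 (SE 0.16).

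The clamp and its loader had log2 fold changes from −0.16 to 0.08, with 1 of 6 above 0. PCNA (chr20:5095599-5107272) had 251.1, 297.3 and 398.2 normalised CPM with the mimic, against 376.6, 275.5 and 377.1 with the control. On 22 August the mimic library was the lower of the pair, while on 5 and 18 September it was the higher, and the arms overlapped. The log2 fold change was −0.12 (SE 0.19), and it was 0.02 without the 22 August mimic library. RFC3 and RFC5, small subunits of the loader, had −0.16 and −0.15 (SE 0.15 each).

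FEN1, the flap endonuclease that trims the RNA-primed ends of lagging strand fragments (chr11:61560109-61564716), was the gene of the set with the lowest p. It had 118.5, 120.1 and 109.1 normalised CPM with the mimic, against 149.6, 141.5 and 131.5 with the control. Each mimic library lay below each control library. The means were 115.9 ± 5.91 and 140.9 ± 9.10 normalised CPM (SD, n = 3 each), and the log2 fold change was −0.28 (SE 0.13, 95% CI −0.56 to −0.00092, unadjusted p = 0.0494, adjusted p = 0.999 by edgeR). A two-sided exact permutation test gave p = 0.1, its lower limit for 3 libraries per arm. The ratios were −0.34, −0.24 and −0.27, about equal on the 3 dates. With the date as a replicate block the unadjusted p was 0.0225 and the adjusted p 0.824. With any 1 of the 6 libraries left out, the unadjusted p was 0.0627 to 0.167. FEN1 overlaps FADS2 and TMEM258, so reads could have been assigned across these genes.

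LIG1, the ligase that seals the same fragments (chr19:48618702-48673860), had 64.7, 48.9 and 49.0 normalised CPM with the mimic, against 43.9, 51.8 and 46.2 with the control. The 22 August mimic library stood above the other 5. The log2 fold change was 0.20 (SE 0.15), and −0.0020 when both 22 August libraries were left out. RPA3 had ratios of −0.53, 0.51 and −0.06 on the 3 dates, and its log2 fold change was −0.04 (SE 0.18). The ratio of this least abundant RPA subunit thus had opposite signs on the first 2 dates.

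Nucleotide supply genes had log2 fold changes from −0.17 to 0.15, with 2 of 4 above 0. RRM2 (chr2:10262455-10271545) had 323.4, 409.6 and 429.1 normalised CPM with the mimic, against 336.4, 315.6 and 398.0 with the control. The arms overlapped, and the log2 fold change was 0.15 (SE 0.16). Thymidylate synthase (TYMS), which makes dTMP, had 0.15 (SE 0.18), and thymidine kinase (TK1), which salvages thymidine, had −0.17 (SE 0.14). TYMS overlaps the antisense gene ENOSF1, from which its reads cannot be told apart without strand.

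SLBP, which binds the histone mRNA stem-loop (chr4:1694527-1714282), had 95.4, 121.2 and 151.3 normalised CPM with the mimic, against 144.2, 124.5 and 155.9 with the control. The arms overlapped. The log2 fold change was −0.21 (SE 0.17), and the date ratios were −0.59, −0.04 and −0.04, so the 22 August pair held nearly all of it. The CAF-1 subunits that deposit new histones on DNA had 0.05 for CHAF1A and −0.02 for CHAF1B (SE 0.13 each).

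**Figure D3:**
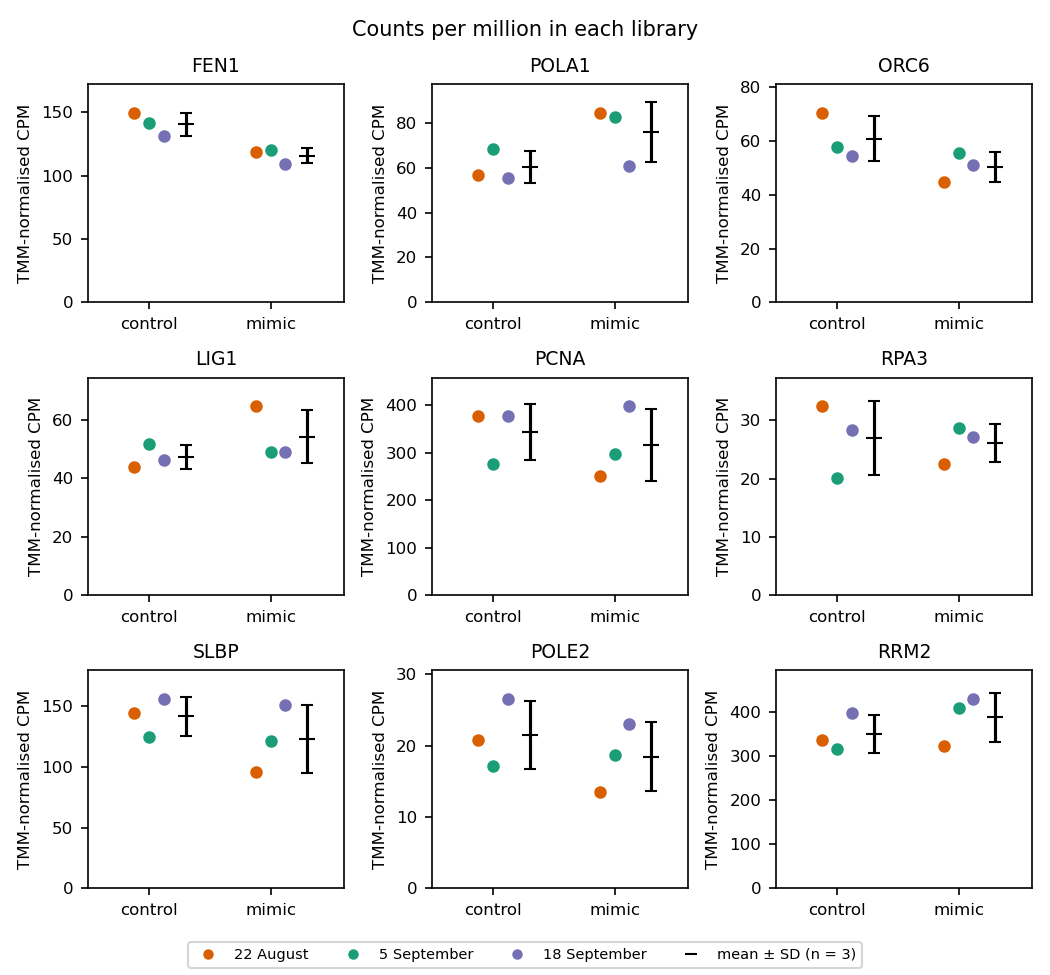
TMM-normalised CPM (vertical axis) of 9 replication genes in the control and mimic arms, with 1 dot per library coloured by date and bars for the mean ± SD (n = 3). FEN1 has no overlap between arms, with the mimic at 109.1 to 120.1 and the control at 131.5 to 149.6, while PCNA and SLBP have overlapping arms and low 22 August mimic libraries, at 251.1 and 95.4.

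Across the 45 genes the arms did not overlap for 3, with CDC6 and GINS4 higher with the mimic (4.22% of all genes were) and FEN1 lower (3.84% of all genes were). That is 6.67% of the set, against 8.06% of all genes. The sign was the same on all 3 dates for 11 of 45 (24.4%, against 30.0%). Neither share was above the background.

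The dates were not alike in spread. On 22 August the control was not the closest library to the mimic by correlation. The log2 CPM of that mimic library correlated across genes at 0.983 with its own control and at 0.988 with the 5 September control. A chi-square of raw counts, averaged over genes, ordered these controls the other way. It was 68.9 with its own control and 99.6 with the 5 September control. The median ratio of the 45 genes was −0.07 on 22 August, with 17 above 0 (37.8%, against 52.0% of all genes). It was 0.05 on 5 September with 27 above 0 (60.0%, against 50.1%), and −0.02 on 18 September with 16 above 0 (35.6%, against 47.5%). The standard deviation over genes was 0.32, 0.19 and 0.10, against 0.50, 0.38 and 0.35 over all genes. A ratio beyond 0.4 on the log2 scale either way was met by 11 genes on 22 August (35.1% of all genes), by 2 on 5 September (19.3%) and by 0 on 18 September (15.0%). The 22 August genes above 0.4 were POLA1, POLE and LIG1, and those below −0.4 were ORC6, GMNN, POLE2, PCNA, RFC3, RFC4, RPA3 and SLBP. Some of these 11 are named because of their values. A test of the difference between the 22 August effect and the later ones called 0 genes, with 841 (5.18%) at an unadjusted p under 0.05 by edgeR, and 0 of the 45. The lowest unadjusted p among the 45 was 0.0641, for RPA3, so the 22 August effects of single genes were not shown to differ.

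The 11 genes were split by length. The 3 above 0.4 had a gene length of 4102 to 8011 bases in the deposited table, and the 8 below −0.4 had 1262 to 2402 bases. Over the 45 genes, log2 length and the 22 August ratio correlated at Pearson r = 0.77 and Spearman rho = 0.72, as a description across genes that share the same pair of libraries. The slope was 0.41 per doubling of length, against 0.15 over all 16233 genes, where r was 0.31. On 5 September r was −0.23 and on 18 September 0.24. The 22 genes shorter than the median length had a median 22 August ratio of −0.26 with 3 above 0, and the 23 others had 0.16 with 14 above 0. The roles differ in length, and on 22 August the clamp and loader genes had a median ratio of −0.42 and the MCM genes 0.16. With the trend over all genes removed, r for the 45 was 0.52 on 22 August, and the standard deviation was 0.24 in place of 0.32. The clamp and loader median was then −0.28, with 0 of 6 above 0, and the MCM median was 0.02. The part of RNA quality in these values was not tested. The share of mitochondrially encoded transcripts was 13.3% in the 22 August mimic library and 8.39% in its control, and 5.66 to 7.27% in the other 4.

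**Figure D4:**
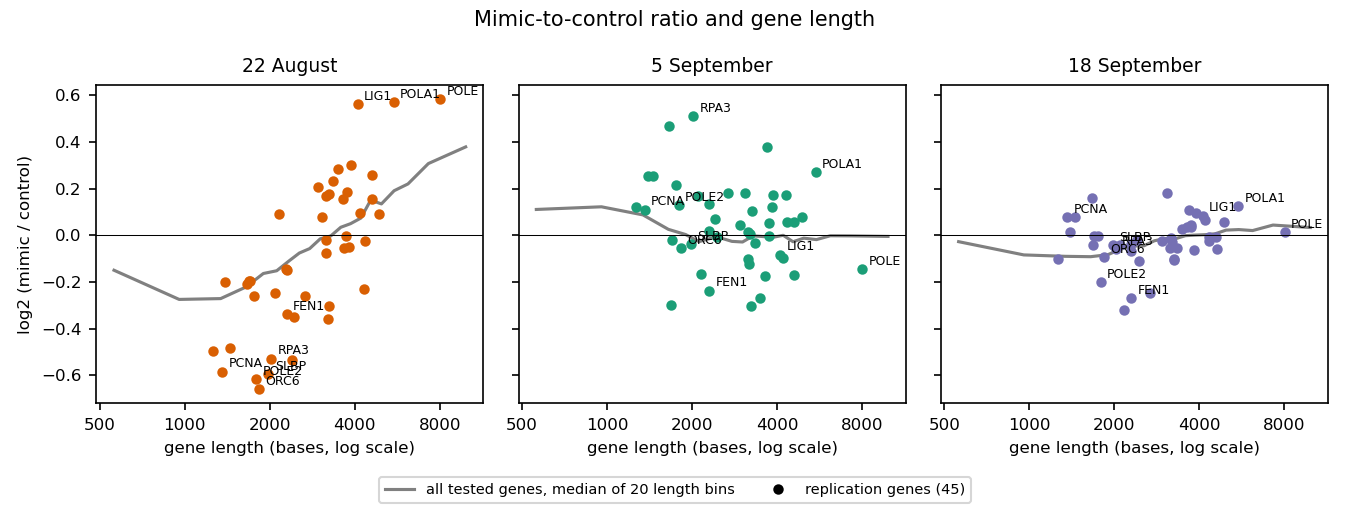
Log2 ratio of mimic to control against gene length (log axis) for the 45 genes on each date, with the median of all tested genes in 20 length bins as a line. On 22 August the points run from −0.66 to 0.58 along length, and on 18 September they lie between −0.32 and 0.18.

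Dates were also compared with the mimic as a second term. By edgeR 50 genes of the table differed between dates (0.308%), and none of the 45 did (lowest adjusted p 0.321). At an unadjusted p under 0.05 there were 4 of the 45 (8.89%, against 13.2%): MCM10, POLE2, RFC2 and RPA2. When 18 September was set against the other dates, 10 of the 45 had an unadjusted p under 0.05 (22.2%, against 16.4%), 8 higher and 2 lower, and none passed adjustment (lowest adjusted p 0.204, with 0.0493% of all genes called). For 22 August it was 1 of the 45 (2.22%, against 6.89%) and for 5 September 3 (6.67%, against 12.9%). RPA2 had 111.2, 133.5 and 174.4 normalised CPM with the mimic, against 133.5, 115.0 and 174.6 with the control. RFC2 had 101.8, 101.9 and 143.9 with the mimic, against 116.7, 103.3 and 144.1 with the control. Both 18 September libraries stood above the other 4 for each of these genes, with log2 differences of 0.50 and 0.45. MCM10, by contrast, had a difference of −0.34 and POLA1 −0.32. The 8 higher genes had lengths of 1662 to 2673 bases, and over all 45 the date difference correlated with log2 length at r = −0.70 (−0.18 over all genes). The same libraries enter every gene, so these coefficients are descriptions.

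The second question was whether the replication genes moved as histone mRNAs would if the arms differed in cell cycle phase. Of 69 replication-dependent histone genes, 38 were tested. Of these, 34 lay above 0 and the median was 0.30 on the log2 scale (89.5%, against 50.3% of all genes), none was called, and 6 had an unadjusted p under 0.05 by edgeR, all higher with the mimic (15.8%, against 1.74%). The replication genes had −0.02 with 21 of 45 above 0. On the 3 dates the histone medians were 0.37, 0.22 and 0.33, and those of the replication genes −0.07, 0.05 and −0.02. The histone list as a whole thus had a median above 0 on each date, and replication genes had one above 0 on 5 September only. The histone types were not alike. Median log2 fold changes were 0.44 for H1 (4 tested), 0.33 for H2A (9), 0.21 for H2B (12), 0.06 for H3 (4) and 0.59 for H4 (9). On 5 September the H3 median was −0.41, with 1 of 4 above 0. The H4 genes had a median standard error of 0.50. A histone gene needed enough counts in 3 libraries to be tested, so a scarce one could enter through its higher arm alone. Such entry can enlarge differences between arms, and its part in these values was not tested. With a filter of 1 CPM or more in 3 libraries the histone median was 0.24. This histone pattern was known from earlier work on these counts and is no independent support.

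Each library was then given a level for each list. The median over tested histone genes of the deviation from the 6-library mean was 0.19, 0.19 and 0.09 on the log2 scale with the mimic, against −0.07, −0.09 and −0.17 with the control, with no overlap. Over the replication genes it was −0.11, −0.02 and 0.04 with the mimic, against 0.02, −0.05 and 0.09 with the control, which overlapped. Summed histone transcripts came to 4.13, 4.50 and 4.39% of summed replication transcripts with the mimic, against 4.03, 3.43 and 3.66% with the control. The means were 4.34 ± 0.189% and 3.71 ± 0.302% (SD, n = 3 each), and on 22 August the pair was nearly equal. The histone estimates were less certain: the median standard error was 0.30 against 0.15, and 17 of 38 had a 95% CI inside a 2-fold change. Many histone genes are near-identical copies, so reads could be split between them or dropped. The tested ones had a median of 1.63 normalised CPM, against 101.2 for the replication genes. Without the 22 August mimic library the histone median was 0.15 and the replication median 0.02. Whether the libraries were made with poly(A) selection is not stated in the labels, and the part of that in the histone values was not tested.

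**Figure D5:**
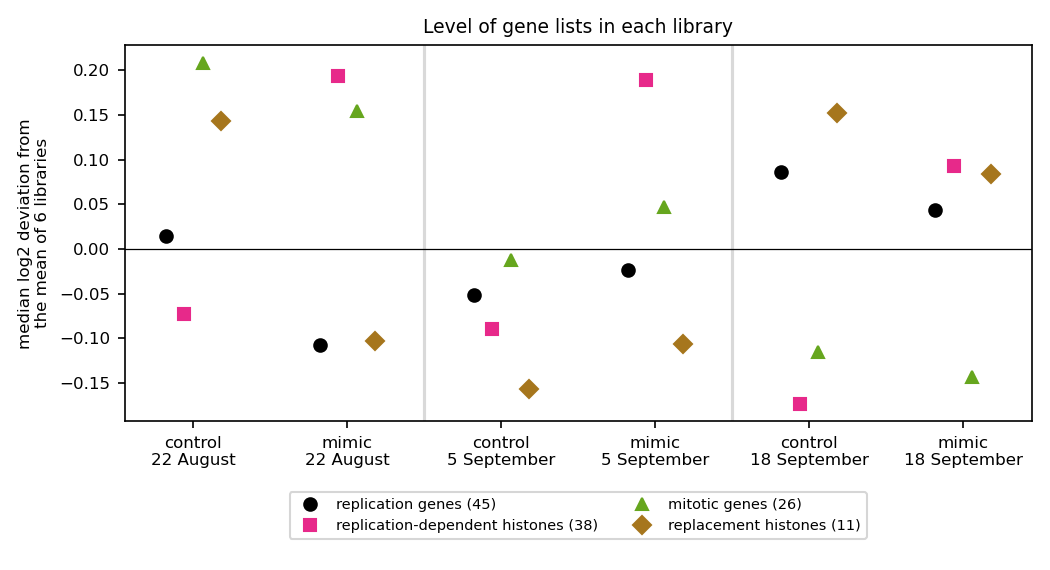
Level of 4 gene lists (symbols) in each library (horizontal axis, by date and arm), as the median over genes of the log2 deviation from the mean of the 6 libraries. The replication-dependent histones (squares) lie at 0.09 to 0.19 with the mimic and at −0.17 to −0.07 with the control, while the replication genes (circles) of the arms overlap.

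Other cell cycle lists were set beside the 45 genes. For 41 further replication genes, nucleotide enzymes among them, 25 lay above 0 and the median was 0.04 on the log2 scale. For 29 genes of G1/S control 11 lay above 0 and the median was −0.05. The medians were −0.04 for 14 genes of histone mRNA processing (5 above 0), −0.12 for 11 tested replacement histones (2 above 0) and −0.01 for 26 mitotic genes (12 above 0). None was called in any of these lists by edgeR (lowest adjusted p 0.999). Summed replication over summed mitotic transcripts was 3.22 ± 0.406 with the mimic and 3.21 ± 0.435 with the control (mean ± SD, n = 3 each). In date order this ratio was 2.93, 3.05 and 3.68 with the mimic, against 2.83, 3.11 and 3.68 with the control. These SDs thus include a difference between dates that both arms shared. By date the mitotic genes had a median of −0.19 on 18 September against the other dates, and 0.20 on 22 August with 23 of 26 above 0 (8291 of 16233 over all genes). The 6 HEK293 markers had a 22 August median of 0.29 with 6 above 0. The replication genes had 0.09 on 18 September and −0.02 on 22 August.

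Single genes of these lists include LSM10, a component of the U7 particle that cuts histone pre-mRNA, with 8.36, 9.83 and 10.97 normalised CPM with the mimic, against 14.7, 14.0 and 15.8 with the control. The arms did not overlap, and the log2 fold change was −0.61 (SE 0.16, unadjusted p = 0.00261, adjusted p = 0.999 by edgeR). LSM10 is named because it had the lowest p of its list of 14 genes. Of that list 1 gene had arms without overlap (7.14%, against 8.06% of all genes). Also 1 had an unadjusted p under 0.05 by edgeR (7.14%, against 3.01%). HIST1H2AC had 16.7, 18.7 and 24.3 with the mimic, against 14.5, 9.32 and 11.7 with the control (log2 fold change 0.75, SE 0.20). HIST1H4H had a log2 fold change of 0.66 (SE 0.19). Neither pair of arms overlapped for these histone genes, which had the lowest p of their list. The arms did not overlap, with the mimic higher, for 10 of 38 tested histone genes (26.3%, against 4.22% of all genes). Scarce histone genes that entered the test through their higher arm can raise this share, and their part in it was not tested. SAMHD1, a dNTP-degrading enzyme that lowers the supply made by ribonucleotide reductase, was called in the comparison of dates (adjusted p = 0.0119 by edgeR). It had 103.8, 42.7 and 40.9 normalised CPM with the mimic, against 99.0, 44.1 and 45.8 with the control, so both 22 August libraries stood apart from the other 4. RRM2B, the p53-induced subunit of ribonucleotide reductase, had a log2 fold change of 0.22 (SE 0.13), and E2F8, a repressor of late G1 genes, had 0.27 (SE 0.17).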

How the data were processed

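RNA from Ago2 precipitates of 6 HEK293 libraries was compared. The values are counts of reads per gene, deposited by the authors with a gene length in bases, and 0 columns of per-sample values were left unmapped. Per the submitters' processing notes, STAR 2.5, HTSeq 0.6.1, the hg19 build and DESeq2 were used. Strand settings are not given in the sources used here. Depth was 20233819 to 34408699 counts per library.

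The members and all lists were chosen with earlier results of these data known. The arm and the date of each library follow its title. In R 4.3.3, edgeR 4.0.16 ran its quasi-likelihood test on TMM-scaled counts after filterByExpr (min.count 10, min.total.count 15), with Benjamini-Hochberg adjustment over 16233 genes at 0.05. Alternatives used DESeq2 1.42.0, limma 3.58.1, other scalings and filters, date as a block and libraries left out. The length trend (loess span 0.3) and the 22 August interaction were added after the data were seen. RPKM was computed here as normalised CPM per kilobase of that length. A prior count of 2 entered the ratios by date. Summaries were made in Python 3.11.15 (pandas 2.3.3, scipy 1.17.1), plots with matplotlib 3.10.9. The code was tested on simulated data.

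Libraries of one date share that label and were paired by it in the ratios by date and in the fits with a replicate block. The main edgeR test of the mimic had no date term. Deviations from the arm means correlated at r = 0.0466, 0.154 and 0.513 in date order. Pairs of unlike dates ran from −0.399 to 0.243, the highest being the 22 August mimic with the 5 September control, above the same-date values of 22 August and 5 September.

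Genes were picked for naming as the 3 lowest in unadjusted p for the mimic and the 2 lowest for date in each of 8 roles. To these were added 2 of each other list and any called gene. Some of those picked are not described above. Among them, log2 fold changes for the mimic were 0.52 for CENPA, −0.33 for H3F3A, −0.29 for CCNB1 and −0.30 for PTTG1. They were −0.25 for SNRPB, 0.23 for RBL1 and −0.20 for DTYMK, and none was called. Other members were named after their values were seen. Sequences are from RefSeq, GRCh38.p14.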

Additional observations from a re-analysis of the deposited data

How the results depend on the processing

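All 19 alternatives to the mimic comparison called 0 of the 45 replication genes. Over all genes, edgeR without a filter called 6 higher and 14 lower, DESeq2 called 2 and 3, and DESeq2 with the replicate block 4 and 6; the cause was not tested. The edgeR fit with the date as replicate block called 0 genes, gave 933 an unadjusted p under 0.05 in place of 488 (2 replication genes, FEN1 and POLA1, in place of 1), and changed no call at the adjusted threshold. The FEN1 value kept its sign in all 19 alternatives, but its unadjusted p was under 0.05 in only 5 (RLE scaling, DESeq2 with and without the replicate block, limma-voom and edgeR with the replicate block). It was over 0.05 in the other 14, which include each of the 6 libraries left out in turn. The genes that differ between dates numbered 576 without a filter and 165 by the DESeq2 likelihood ratio test, against 50.

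The histone median was 0.15 to 0.35 with 1 library left out, lowest without the 22 August mimic library, and 0.22 without both 22 August libraries. The cause was not tested.

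Some named log2 fold changes crossed 0, none of them called in the mimic comparison. With 1 library left out they ran from −0.016 to 0.19 for MCM10, −0.26 to 0.041 for GINS2, −0.23 to 0.013 for POLD2, −0.32 to 0.021 for PCNA, −0.22 to 0.11 for RPA3, −0.021 to 0.094 for CHAF1A, −0.074 to 0.027 for CHAF1B and −0.59 to 0.48 for SAMHD1. Without both 22 August libraries GMNN was 0.0017, RFC3 0.025, PCNA 0.093, LIG1 −0.0020, RPA3 0.21, CHAF1A −0.042 and CHAF1B 0.047. SAMHD1 was 0.022 without both 18 September libraries. With the length trend removed RPA3 was 0.013 and CHAF1B 0.024. The cause was not tested. The median 95% CI of a replication gene was 0.63 wide on the log2 scale, which limits what 3 libraries per arm can resolve.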
